A study of Mus musculus with 8 samples.

Results

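Syndecans and glypicans are the families of heparan sulfate proteoglycans that sit on the cell surface, and their members were taken by gene symbol as Sdc1 to Sdc4 and Gpc1 to Gpc6. These 10 genes stood on 11 of the 45706 lines of the expression table, because the symbol Gpc2 was used for a second line. The muscle stem cells, also called satellite cells, came from hindlimb muscle of WT C57BL/6 female mice aged 8 to 12 weeks and were sorted as negative for CD45, Sca1, CD31 and CD11b and positive for α7-integrin and CD34. There were 3 libraries from cells kept in culture for 48 h on 12 kPa hydrogel (cultured 1 to 3) and 5 from cells taken fresh after the sort (fresh 1 to 5). The labels describe a medium with 20% FBS, low-glucose medium and F-10 for every library, fresh ones included. Fresh 1 to 3 belonged to one sequencing run (run 1), and fresh 4 and 5 to the run that also held the cultured libraries (run 2). The sources used here do not say whether libraries came from separate mice or cultures or how many mice were pooled. A p-value below therefore reflects only how far these libraries spread, which may be technical. In bulk libraries of this kind, fewer cells of a type and less RNA per cell cannot be told apart.

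A syndecan is a protein that spans the membrane, with a short cytoplasmic tail that binds adaptor and cytoskeletal proteins. A glypican is held in the outer leaflet of the membrane by a lipid anchor and has no cytoplasmic tail. Both carry heparan sulfate chains, which bind growth factors such as FGFs, HGF and Wnts, and some syndecans also carry chondroitin sulfate. In mouse muscle, Sdc3 and Sdc4 are known as surface proteins of satellite cells, and both have been studied for their part in satellite cell activation and muscle regeneration.

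Library totals were 16654628 to 20068199 counts in culture and 13919508 to 20055228 counts in fresh cells. Lines with a count numbered 15415 to 17852 per cultured library, against 20480 and 20898 for fresh 4 and 5 and 32710 to 34689 for fresh 1 to 3. Of the 10 muscle stem cell markers listed, none was at 0 in either group, 8 passed the test as lower in culture, and Itga7 and Cd34, the genes of the proteins sorted for, did not pass. Their summed level was 605 to 653 CPM (counts scaled to a common library size) in cultured libraries and 3379 to 5355 CPM in fresh libraries. Of the 5 activated myoblast markers tested, Myod1, Mki67 and Ccnd1 passed as higher in culture and Myog and Des as lower, and their levels summed to 1499 to 2066 CPM in cultured and 497 to 742 CPM in fresh libraries.

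The promoters of 7 of the 10 genes were matched in the RefSeq promoter table (GRCm38.p6), which holds 300 bases around each annotated start. Those of Sdc4, Sdc3 and Gpc3 are shown because their culture difference passed the test in at least 18 of 20 alternative settings, with Sdc4 and Gpc3 lower in culture and Sdc3 higher. Each is written 5′ to 3′ on the strand of its gene, and capitals mark each match to GGGCGG, the core of a GC box, or to its reverse complement CCGCCC.
Sdc4 promoter, chr2:164443139-164443438, minus strand: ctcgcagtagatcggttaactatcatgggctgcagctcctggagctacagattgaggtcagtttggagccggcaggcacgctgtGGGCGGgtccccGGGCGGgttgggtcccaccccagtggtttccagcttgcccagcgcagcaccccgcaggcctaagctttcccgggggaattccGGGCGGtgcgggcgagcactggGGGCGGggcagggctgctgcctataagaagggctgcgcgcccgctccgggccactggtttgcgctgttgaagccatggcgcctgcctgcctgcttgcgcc
Sdc3 promoter, chr4:130792287-130792586, plus strand: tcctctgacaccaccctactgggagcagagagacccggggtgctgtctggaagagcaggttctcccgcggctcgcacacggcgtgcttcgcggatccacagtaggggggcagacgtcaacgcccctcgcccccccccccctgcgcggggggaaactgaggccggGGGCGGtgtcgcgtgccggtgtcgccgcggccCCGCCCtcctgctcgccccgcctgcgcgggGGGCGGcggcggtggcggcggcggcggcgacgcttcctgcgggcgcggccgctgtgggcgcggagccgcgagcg
Gpc3 promoter, chrX:52613925-52614224, minus strand: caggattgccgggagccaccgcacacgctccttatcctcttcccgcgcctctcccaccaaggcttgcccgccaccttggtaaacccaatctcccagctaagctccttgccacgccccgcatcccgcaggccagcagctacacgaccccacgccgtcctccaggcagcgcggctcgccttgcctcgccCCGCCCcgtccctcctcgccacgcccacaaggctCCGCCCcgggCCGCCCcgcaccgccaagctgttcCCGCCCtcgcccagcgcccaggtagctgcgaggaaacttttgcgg
GGGCGG, searched on both strands, was present in all 7 matched promoters (Sdc1, Sdc3, Sdc4, Gpc2, Gpc3, Gpc4 and Gpc5) with 1 to 4 matches each, and in 35.66% of the 32851 promoters of the table. GC content was 54.67 to 77.67% in the 7 promoters, where the median of all promoters was 52.67%, and they held 14 to 44 CpG dinucleotides each, where the median was 7. The E-box letters CANNTG, of which CAGCTG is one form, were found in the promoters of Sdc1 and Gpc2 and in 72.31% of all promoters, and CAGCTG in none of the 7. TATAAA, also searched on both strands, was found in that of Gpc5 alone, on the strand opposite to the gene, and in 13.62% of all promoters. The RefSeq start used for Sdc4 lies 699 bases inside the gene as GENCODE M21 draws it.

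For 10 of the 11 lines, culture was tested against fresh isolation in an edgeR quasi-likelihood fit that included the run, and Gpc5 had too few counts to be kept. Sdc3 and Gpc1 rose in culture, Sdc4, Gpc2 and Gpc3 fell, and 5 lines did not pass a Benjamini-Hochberg adjusted p of 0.05. That is 5 of 10, where 26.9% of all 19054 tested genes passed, 8.87% higher and 18% lower in culture. The groups did not overlap on 7 of the 10 lines, with culture above on 3 and below on 4, and on 39.9% of all tested genes, 13.7% above and 26.1% below. Without scaling factors the members' counts were again 2 higher and 3 lower, beside 27.9% of all genes, and the calls over all genes were 2452 higher and 2857 lower, against 1691 and 3431 with scaling. The median over genes of the shift in log2 fold change in that setting was 0.41. DESeq2 called 7 of the 10 lines, 2 higher and 5 lower, and 35.9% of all genes. The median log2 fold change was -0.96 over the 10 lines and -0.21 over all tested genes. Because no cultured library was in run 1, the fold changes below are relative to fresh 4 and 5. Fresh 1 to 3 inform the spread, the scaling and which lines were kept for the test.

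**Figure D1:**
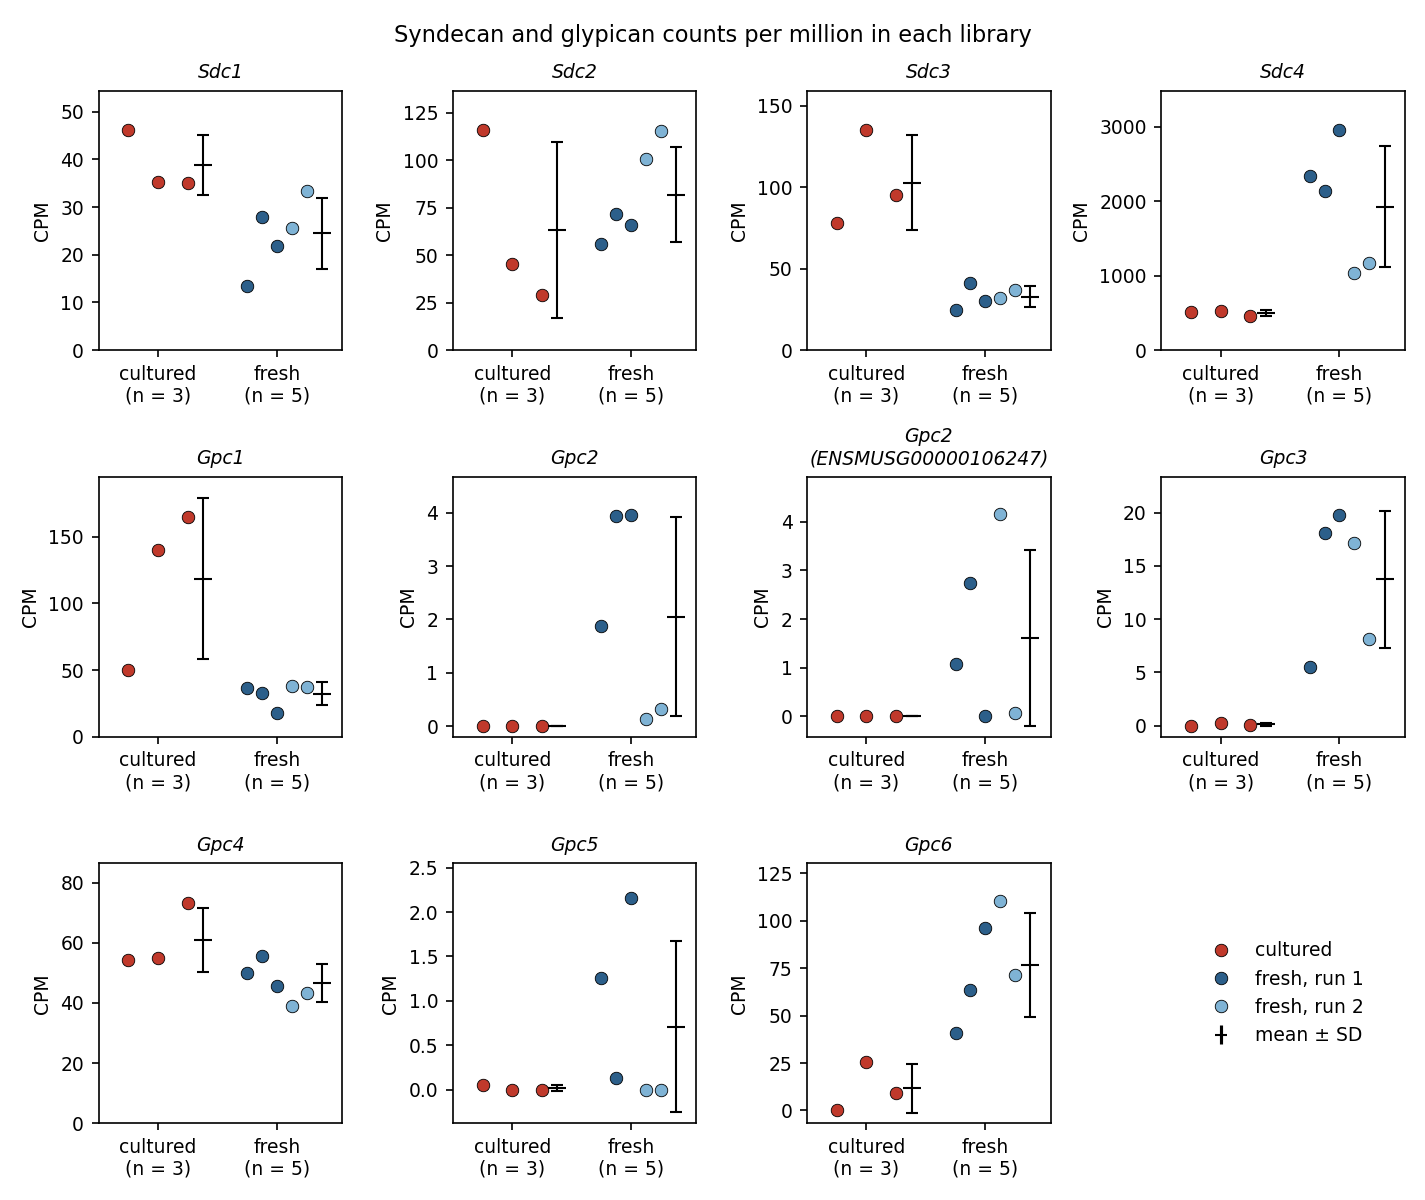
Level in CPM of each syndecan and glypican line (y axis, linear, 1 panel per line) in 3 cultured and 5 fresh libraries, with points for single libraries, colours for group and run, and bars for the mean ± SD of each group. Sdc4 is 456 to 531 CPM in all cultured libraries and at least 1040.4 CPM in all fresh ones, Sdc3 and Gpc1 lie above all fresh libraries in culture, and Gpc3 is close to 0 in culture.

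Among the syndecans, Sdc4 fell in culture and Sdc3 rose. Sdc4 (ENSMUSG00000017009, chromosome 2, 164424247 to 164443887, minus strand, mm10), whose product is found with integrins at focal adhesions, was at 512, 531 and 456 CPM in cultured 1 to 3, against 2346, 2139, 2957, 1040.4 and 1169.7 CPM in fresh 1 to 5. The cultured libraries were close to each other and all below the lowest fresh library, and fresh 1 to 3 were all above fresh 4 and 5. Sdc4 averaged 499.8 ± 38.8 CPM in cultured and 1930.5 ± 813 CPM in fresh libraries (SD, n = 3 and 5), and the log2 fold change was -1.14 ± 0.21 (SE; edgeR adjusted p = 0.00546). Against the run-1 fresh libraries the log2 fold change was -2.25, and without scaling factors it was -0.74. Sdc4 passed the test in the same direction in 20 of 20 alternative settings, with adjusted p from 3.86e-05 to 0.0372.

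Sdc3 (ENSMUSG00000025743, chromosome 4, 130792537 to 130826319, plus strand), the syndecan best known from nerve tissue and satellite cells, was at 78.3, 135 and 95.1 CPM in cultured libraries, against 24.6, 41.0, 29.9, 32.3 and 36.7 CPM in fresh libraries. All cultured libraries lay above all fresh ones, and the 2 runs of fresh libraries overlapped. Sdc3 averaged 103 ± 29.1 CPM in cultured and 32.9 ± 6.31 CPM in fresh libraries. The fitted level was 2.98-fold higher relative to fresh 4 and 5 (log2 fold change 1.57 ± 0.37, edgeR adjusted p = 0.0134). The call was lost without fresh 4 (adjusted p = 0.0870) and without fresh 5 (adjusted p = 0.0678). Of the 50-base windows of Sdc3 transcripts, 5.36% were also found in an antisense gene on the other strand, Gm26716, and the sources used here do not say whether counting used strand.

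Sdc1 and Sdc2 did not pass the test. Sdc1 (chromosome 12, 8771323 to 8793715, plus strand), the main syndecan of epithelia and plasma cells, was at 46.2, 35.4 and 35.1 CPM in cultured libraries, against 13.6, 27.8, 21.9, 25.6 and 33.4 CPM in fresh libraries. Every cultured library of Sdc1 was above every fresh one, but the gap was small beside the spread, with 38.9 ± 6.32 CPM in cultured and 24.5 ± 7.38 CPM in fresh libraries and a log2 fold change of 0.40 ± 0.43 (adjusted p = 0.534, edgeR). Sdc2 (chromosome 15, 32920723 to 33034935, plus strand), a syndecan of fibroblasts and other mesenchymal cells, was at 116, 45.2 and 28.9 CPM in cultured libraries, against 56.0, 71.5, 66.0, 100.4 and 115 CPM in fresh libraries. Cultured 1 was level with the highest fresh library and cultured 2 and 3 were below all fresh ones, so the groups overlapped (log2 fold change -0.77 ± 0.51; adjusted p = 0.298, edgeR). Without cultured 1, Sdc2 passed as lower in culture (log2 fold change -1.48; adjusted p = 0.00768).

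Among the glypicans, Gpc1 rose in culture and Gpc3 fell to 0 to 5 counts per library. Gpc1 (ENSMUSG00000034220, chromosome 1, 92831645 to 92860779, plus strand), a co-receptor for FGFs, was at 50.3, 139.8 and 165 CPM in cultured libraries, against 36.3, 32.6, 17.6, 37.7 and 37.4 CPM in fresh libraries. All cultured libraries lay above all fresh ones, cultured 1 by the least. Gpc1 averaged 118 ± 60.3 CPM in cultured and 32.3 ± 8.45 CPM in fresh libraries, a 3.15-fold higher level (log2 fold change 1.66 ± 0.53; adjusted p = 0.0490, edgeR). That call stood at the threshold and was lost in 12 of 20 alternative settings, among them those without any 1 of fresh 1 to 5, cultured 2 or cultured 3, where the adjusted p was 0.0529 to 0.208. Without cultured 1 the adjusted p was 0.00393 and the log2 fold change 2.08. Of the 50-base windows of Gpc1 transcripts, 18.01% were also found in Ankmy1 on the other strand.

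Gpc3 (ENSMUSG00000055653, chromosome X, 52272426 to 52613950, minus strand), a glypican that binds Hedgehog proteins and Wnts and restrains growth in the embryo, was at 0, 0.257 and 0.0510 CPM in cultured libraries, against 5.47, 18.1, 19.8, 17.2 and 8.14 CPM in fresh libraries. Behind the cultured values stood 0, 5 and 1 counts, so Gpc3 was at or near the limit of detection in culture and well above it in every fresh library. Counts pooled over the group gave a level 123 times lower in cultured than in run-2 fresh libraries, with a 95% interval of 56.1 to 338 that covers counting error only. The fitted log2 fold change was -6.84 ± 1.27 (adjusted p = 0.00564, edgeR), and it was -8.57 without cultured 2, which held most of the counts. Gpc3 passed in the same direction in 20 of 20 alternative settings, with adjusted p up to 0.0443. No 50-base window of Gpc3 transcripts was found in another gene.

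Gpc6 (ENSMUSG00000058571, chromosome 14, 116925315 to 117976544, plus strand), a glypican best known from the skeleton and from astrocytes, was at 0.158, 25.5 and 9.43 CPM in cultured libraries, against 40.9, 63.6, 96.1, 110.2 and 71.5 CPM in fresh libraries. The 3 cultured libraries were all below all fresh ones but differed widely from each other, and cultured 1 held 3 counts where cultured 2 held 495. Gpc6 averaged 11.7 ± 12.8 CPM in cultured and 76.5 ± 27.3 CPM in fresh libraries, and the log2 fold change of -2.96 ± 1.20 did not pass (adjusted p = 0.101, edgeR). It passed without cultured 1 (log2 fold change -2.32; adjusted p = 0.0125), without cultured 2 (-4.18; adjusted p = 0.0477), with DESeq2 (-3.03; adjusted p = 0.0364) and with limma-voom (-4.63; adjusted p = 0.0466). Gpc4 (chromosome X, 52053021 to 52165252, minus strand), the neighbour of Gpc3 and known as a carrier of morphogens, was at 54.3, 55.1 and 73.2 CPM in cultured libraries, against 50.03, 55.6, 45.7, 39.0 and 43.4 CPM in fresh libraries. The groups overlapped at their edges, and Gpc4 did not pass (60.9 ± 10.7 CPM in cultured and 46.8 ± 6.35 CPM in fresh libraries; log2 fold change 0.56 ± 0.29; adjusted p = 0.191, edgeR).

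Gpc2 and Gpc5 were the least abundant glypicans. Gpc2 (ENSMUSG00000029510, chromosome 5, 138273655 to 138280005, minus strand), a glypican of developing neurons, had no count in any cultured library, against 1.88, 3.94, 3.96, 0.126 and 0.326 CPM in fresh libraries. The last 2 of these values, from run 2, rest on 2 and 5 counts. With a floor of 3 counts (0.0517 CPM) over the cultured group, the cultured level was at least 4.34-fold below run-2 fresh libraries. That bound takes the 7 run-2 fresh counts as they are, without their counting error. Relative to run-1 fresh libraries the bound was 62.1-fold, where run and culture cannot be told apart. Gpc2 passed as lower (adjusted p = 0.0322, edgeR), but not without fresh 5 (adjusted p = 0.107, bound 2.44-fold) nor without any 1 of the cultured libraries (adjusted p = 0.0588 to 0.0627, bounds 2.87 to 2.92-fold). The Gpc2 line was tested in only 16 alternative settings. It was not tested without any 1 of fresh 1 to 3 or in run 2 alone, so whether the call holds there is unknown. The second line of that symbol (ENSMUSG00000106247), which GENCODE M21 names Gm43720 and draws across both Gpc2 and its neighbour Gal3st4, also had no count in culture, against 1.08, 2.74, 0, 4.17 and 0.0651 CPM in fresh libraries. Nearly all of its run-2 counts came from fresh 4, and it did not pass (adjusted p = 0.0667, edgeR). The Gpc2 line shares 49.68% of its 50-base windows with that second line, so how reads were divided between them is uncertain. With the counts of both lines added together, the symbol passed as lower (adjusted p = 0.0136, edgeR). That sum is not a level of Gpc2 alone, since the second line shares 49.47% of its windows with Gal3st4 and 35.85% with Gpc2. In run 2 the sum rests mostly on the 66 counts of the second line in fresh 4. Gpc5 (chromosome 14, 115092215 to 116525179, plus strand) had 1 count in cultured 1 and 0 in cultured 2 and 3, against 22, 2, 36, 0 and 0 counts in fresh libraries. Its counts were found in run 1 only among fresh libraries, so no culture difference within run 2 could be measured.

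**Figure D2:**
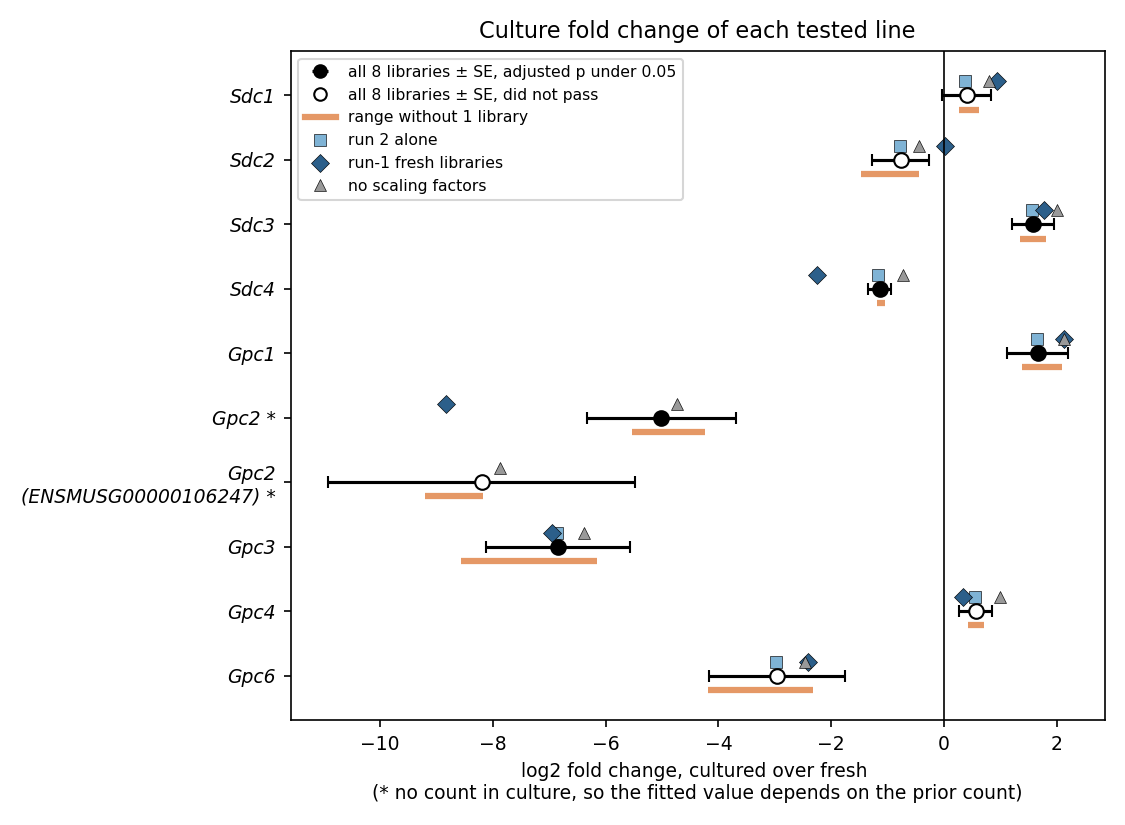
Log2 fold change, cultured over fresh, of each tested line (x axis), with the estimate over all 8 libraries ± SE (filled where the adjusted p was under 0.05), the range without any 1 library (bar) and the estimates from run 2 alone, against run-1 fresh libraries and without scaling factors. Every estimate shown is left of 0 for Sdc4, Gpc3, Gpc6 and both Gpc2 lines, and right of it for Sdc1, Sdc3, Gpc1 and Gpc4. Sdc4 is at -1.14 over all libraries and at -2.25 against run-1 fresh libraries.

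Marker sums of most other cell types were also lower in culture than in fresh libraries, with the myofibre sums overlapping. The part of those cell types in the lower level of any member was not tested. Nor was it tested for any gene below that makes, edits, sheds or binds these proteoglycans. Of the 8 fibro-adipogenic markers, 6 passed as lower in culture, with a sum of 9.94 to 20.9 CPM in cultured and 895 to 1315 CPM in fresh libraries. Ly6a, the gene of the Sca1 protein sorted against, was at 0 in culture and at most 1.34 CPM in fresh libraries, and Pdgfra was at most 1.65 CPM in cultured and 13.3 CPM in fresh libraries. Dcn, of the same list, was far higher in fresh libraries, at 159 to 588 CPM against 3.92 to 9.22 CPM in cultured ones. Of the 9 pericyte and smooth muscle markers, 6 passed as lower, with sums of 35.9 to 130 CPM in cultured and 471 to 2727 CPM in fresh libraries, and Abcc9 and Kcnj8 were at 0 in culture. The lowest fresh sum was that of fresh 1, as it was for the fibro-adipogenic, Schwann cell, haematopoietic and tenocyte markers. Fresh 1 was also the lowest fresh library for Sdc1, Sdc2, Sdc3, Gpc3 and Gpc6, but not for Sdc4, Gpc1, Gpc2, Gpc4 or Gpc5. The share of all tested genes that were lowest in fresh 1 is not given here, and a link between these levels and the marker sums was not tested. Of the 7 Schwann cell markers, 6 passed as lower, with Sox10, S100b and Cdh19 at 0 in culture. The sum of the 7 was 413 to 587 CPM in cultured and 606 to 1174 CPM in fresh libraries, but Ncam1, which did not pass, carried nearly all of the cultured sum. Without Ncam1 the sum was 0.0527 to 3.47 CPM in cultured and 51.6 to 820.2 CPM in fresh libraries. Of the 5 tenocyte markers, 3 passed as lower (4.63 to 15.6 CPM in cultured and 40.2 to 427 CPM in fresh libraries). Endothelial markers, of which 3 of 6 tested passed as lower, summed to 0.772 to 41.2 CPM in cultured and 83.3 to 126 CPM in fresh libraries, with Kdr, Cldn5 and Egfl7 at 0 in culture. Most of the highest cultured sums was Pecam1, the gene of the CD31 protein sorted against, which was at 0.103 to 38.1 CPM in cultured and 0.195 to 4.50 CPM in fresh libraries and did not pass (log2 fold change 5.48; adjusted p = 0.0677, edgeR). Without Pecam1 the endothelial sum was 0.263 to 3.16 CPM in cultured and 80.6 to 121 CPM in fresh libraries. Haematopoietic markers, of which 2 of 5 tested passed as lower, summed to 0.255 to 5.92 CPM in cultured and 24.3 to 70.5 CPM in fresh libraries, with Adgre1, Lyz2, Csf1r, Cd52 and Tyrobp at 0 in culture. Myofibre markers, of which 2 of 7 passed as lower, summed to 11.4 to 77.6 CPM in cultured and 24.2 to 29.8 CPM in fresh libraries.

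Between the 2 runs of fresh libraries, edgeR called 36 genes or 0.189% of those tested, DESeq2 903 or 4.74% and limma-voom 1371 or 7.2%. Of the members, edgeR called 0, with Sdc4 and Gpc2 at an unadjusted p under 0.05 (2 members), DESeq2 called 1, Sdc4, and limma-voom called 2, Sdc4 and Gpc2. Sdc4 averaged 1105 ± 91.5 CPM in run-2 and 2481 ± 426 CPM in run-1 fresh libraries (SD, n = 2 and 3), a log2 difference of -1.17 ± 0.22 (adjusted p = 0.0603, edgeR). Gpc2 was at 0.226 ± 0.141 CPM in run-2 and 3.26 ± 1.19 CPM in run-1 fresh libraries (adjusted p = 0.169, edgeR). For Sdc3 the corresponding levels were 34.5 ± 3.15 CPM and 31.8 ± 8.39 CPM, and for Gpc3 12.7 ± 6.39 CPM and 14.5 ± 7.83 CPM. The 2 sets also differed in mitochondrial rRNA, which took 26.5 and 23.2% of the counts in fresh 4 and 5 and 5.25 to 10.5% in fresh 1 to 3, where cultured libraries held 11.1 to 18.4%. With mitochondrial transcripts left out, the members called in culture were again 2 higher and 3 lower, and 0 members differed between the runs.

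Levels of different members were compared per length, as CPM divided by the length in kb of each gene's longest coding transcript. Sdc4 was by far the most abundant syndecan in both groups, at 203 ± 15.8 CPM per kb in cultured and 785 ± 331 CPM per kb in fresh libraries. Its share of the syndecan sum was 80.1 ± 3.13% in cultured libraries (76.7, 80.9 and 82.8%) and 94.4 ± 3.54% in fresh libraries, 96.9% in run 1 and 90.6% in run 2. The 2 groups did not overlap, with 76.7 to 82.8% in cultured and 90.4 to 97.4% in fresh libraries. Among the 18258 tested genes with a length, Sdc4 ranked 230 to 298 in cultured libraries and 33 to 130 in fresh libraries by CPM per kb. Sdc3 took 8.17 ± 2.20% of the syndecan sum in cultured and 0.939 ± 0.451% in fresh libraries.

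In order of level per length, Sdc4 was followed in cultured libraries by Sdc3 (20.7 ± 5.86 CPM per kb), Sdc2 (17.9 ± 13.1) and Sdc1 (12.3 ± 2.00), each overlapping the next. With the union of exons as length, the mean of Sdc2 (17.9 CPM per kb) stood above that of Sdc3 (17.2) in cultured libraries. In fresh libraries the order was Sdc4, Sdc2 (23.2 ± 7.08 CPM per kb), Sdc1 (7.75 ± 2.34) and Sdc3 (6.62 ± 1.27), and only the last 2 overlapped. The summed glypican level per length was 54.7 ± 19.6 CPM per kb in cultured and 54.5 ± 8.22 CPM per kb in fresh libraries, and the cultured libraries spread widely, at 32.6, 61.7 and 69.9 CPM per kb. With the union of exons as length the sums were 47.8 ± 15.8 CPM per kb in cultured and 41.5 ± 4.79 CPM per kb in fresh libraries, and without cultured 1 the cultured mean on the first length was 65.8 CPM per kb. Gpc1 took 49.3 ± 10.7% of that sum in cultured and 14.7 ± 5.05% in fresh libraries, and Gpc6 took 5.28 ± 5.98% in cultured and 39.3 ± 9.43% in fresh libraries. Neither share overlapped between the groups, with Gpc1 at 36.9 to 56.6% in cultured and 7.01 to 20.2% in fresh libraries. Gpc4 took 45.4 ± 15.4% in cultured and 33.2 ± 7.88% in fresh libraries, which overlapped, and Gpc3 took 0.0737% in cultured and 10.9% in fresh libraries. In cultured libraries Gpc1 and Gpc4 overlapped in level and stood above the rest. In fresh libraries Gpc6 and Gpc4 overlapped at the top, Gpc1 and Gpc3 overlapped below them, and Gpc2 and Gpc5 overlapped at the bottom. These glypican shares and orders use the longest coding transcript. With the union of exons Gpc4 had the largest mean share, 51.0% in cultured and 43.0% in fresh libraries. Gpc1 then took 45.6% in cultured and Gpc6 28.2% in fresh libraries. On that length the lowest fresh Gpc6 level (6.37 CPM per kb) was below the highest fresh Gpc1 level (7.30), so these overlapped as well. Shares of one sum depend on each other, so a lower share of one member raises those of the others.

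**Figure D3:**
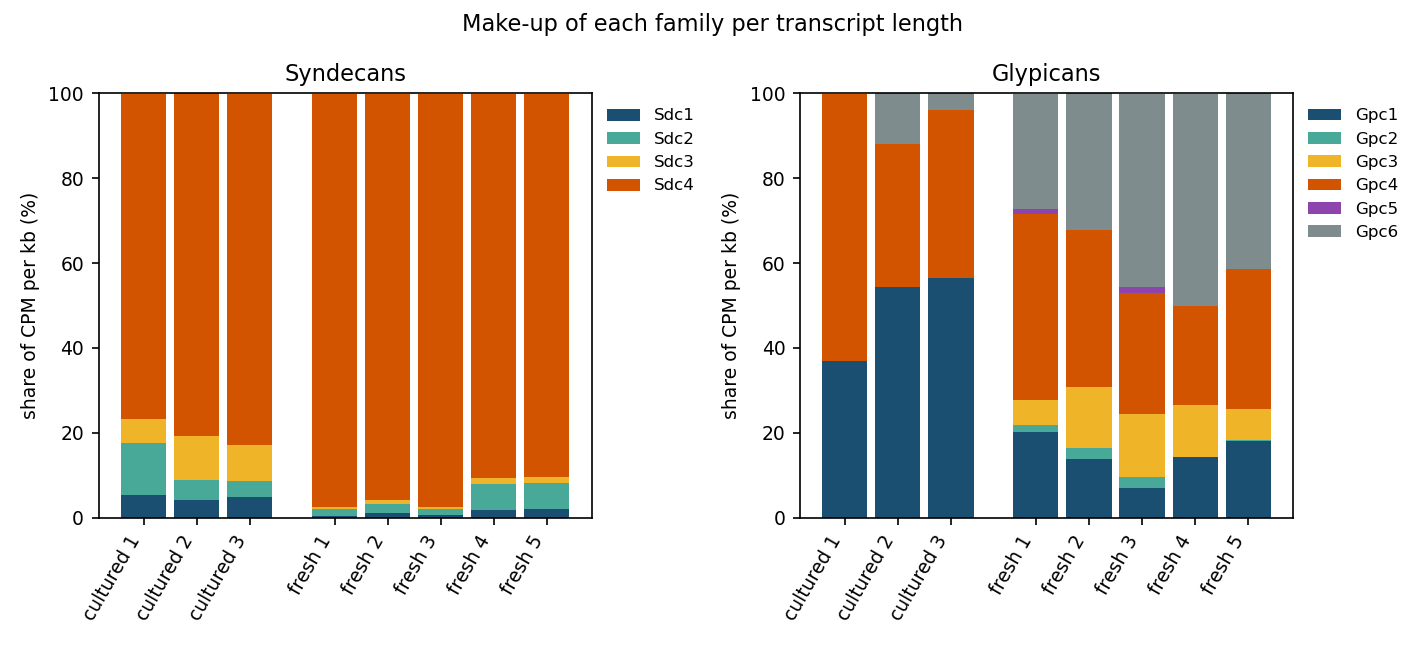
Share of each member in the summed CPM per kb of its family (y axis, percent) in each of the 3 cultured and 5 fresh libraries, syndecans on the left and glypicans on the right. Sdc4 takes 76.7 to 82.8% of the syndecan sum in culture and at least 90.4% in fresh libraries, and Gpc1 and Gpc4 make up most of the glypican sum in culture where fresh libraries also hold Gpc6 and Gpc3.

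Of the 6 glypican genes, 4 lie in 2 pairs with no other coding gene between the members of a pair. Gpc4 and Gpc3 are on the minus strand of chromosome X, 107.2 kb apart, and Gpc5 and Gpc6 are on the plus strand of chromosome 14, 400.1 kb apart. In the first pair Gpc3 fell in culture and Gpc4 did not pass, with log2 fold changes of -6.84 ± 1.27 and 0.56 ± 0.29. In the second, neither passed a test, since Gpc5 was not tested.

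The genes that make, edit, shed or bind these proteoglycans were read from the same fit. Of 95 such genes in 9 lists, 88 were tested, 7 were higher and 22 lower in culture, and 59 did not pass. That is 33% called, 7.95% higher and 25% lower, near the 26.9%, 8.87% and 18% of all tested genes, and the counts per list below stand against the same shares. The median log2 fold change was -0.63 over the 88 genes and -0.21 over all tested genes. Genes named below are those of each list with the largest called changes at a mean of at least 10 CPM, or else its most abundant. Mmp9, Hpse2, Hs6st3, Hs3st1, Hs3st3a1, Hgf, Slit2, Adam10 and Adam17 fall outside that rule and were named after their values were seen.

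**Figure D4:**
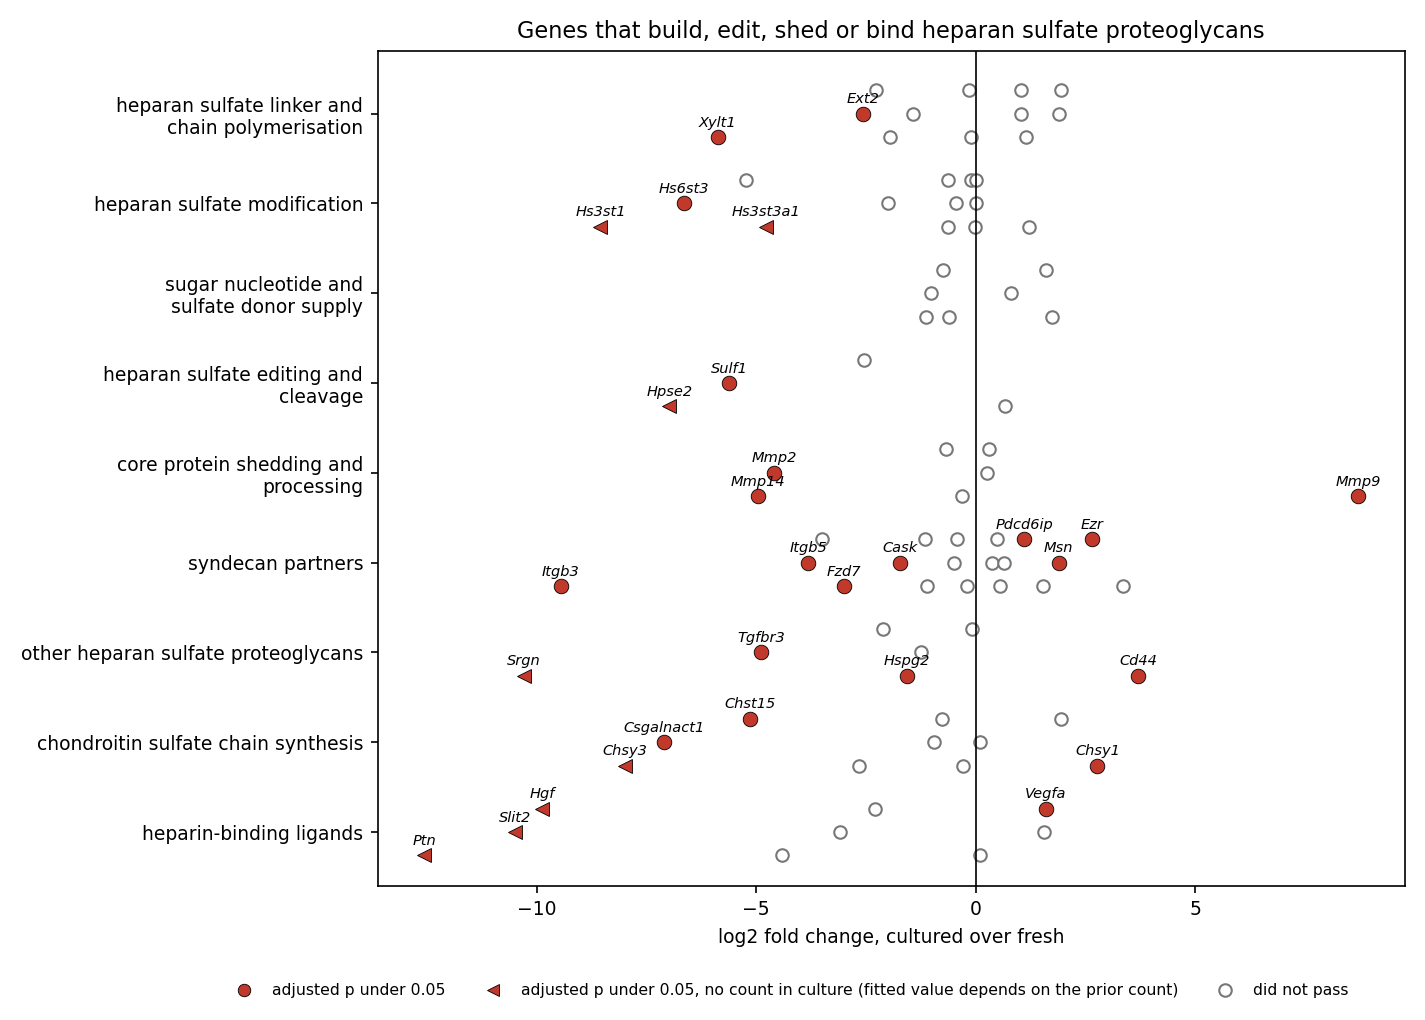
Log2 fold change, cultured over fresh (x axis), of 88 genes that act with heparan sulfate proteoglycans, by list (y axis), with filled symbols and names where the adjusted p was under 0.05 and triangles for genes with no count in culture. Of the named genes 22 lie left of 0 and 7 right of it, and no gene of the donor supply list is filled.

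Of 12 genes for the linker and the chain polymerase, none passed as higher and 2 as lower. Ext2, a subunit of the heparan sulfate polymerase, was at 24.0 ± 14.9 CPM in cultured and 149.6 ± 94.1 CPM in fresh libraries (log2 fold change -2.57; adjusted p = 0.0300, edgeR). It did not pass without fresh 4 (-1.66; adjusted p = 0.251), cultured 2 (adjusted p = 0.0741) or scaling factors (adjusted p = 0.0718), and kept the call in 15 of 20 alternative settings. Its partner subunit Ext1 was at 72.9 ± 40.4 CPM in cultured and 86.4 ± 19.0 CPM in fresh libraries and did not pass (log2 fold change -0.09; adjusted p = 0.927). Of 13 tested genes that modify the chain, 3 passed as lower, Hs6st3, Hs3st1 and Hs3st3a1, which add 6-O- and 3-O-sulfate. Hs3st3a1 had no cultured count and 6 counts in fresh 4 and 5 together. That gave a bound of 3.72-fold, or 1.26-fold without fresh 4, which leaves out the counting error of those 6 counts. The most abundant of them did not pass, with Glce, the epimerase of the chain, at 146 ± 75.8 CPM in cultured and 118 ± 25.2 CPM in fresh libraries, and Hs2st1, the 2-O-sulfotransferase, at 111 ± 30.2 CPM and 139 ± 31.7 CPM in the same order. No gene of the 7 for the supply of sugar nucleotides and sulfate passed with edgeR (1 at an unadjusted p under 0.05, 1 with DESeq2 and 0 with limma-voom). Ugdh, which makes UDP-glucuronic acid, was at 44.1 ± 15.6 CPM in cultured and 54.4 ± 16.9 CPM in fresh libraries, and the sulfate transporter Slc26a2 at 14.4 ± 12.2 CPM and 28.1 ± 4.07 CPM.

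Sulf1, an extracellular enzyme that removes 6-O-sulfate from heparan sulfate, was at 8.11 ± 7.35 CPM in cultured and 367 ± 53.8 CPM in fresh libraries (log2 fold change -5.61 ± 0.70; adjusted p = 0.00107, edgeR). Its relative Sulf2 was at 19.8 ± 11.6 CPM in cultured and 12.4 ± 2.18 CPM in fresh libraries and did not pass (adjusted p = 0.520). Of 4 genes in this list, 2 fell, Sulf1 and Hpse2, a relative of heparanase without any cultured count and at least 17.4-fold below the run-2 fresh libraries. Of 7 tested genes that can cut or release the core proteins, 1 was higher and 2 lower. The matrix metalloproteinase genes Mmp2 (4.65 ± 1.79 CPM in cultured and 118 ± 12.3 CPM in fresh libraries; adjusted p = 0.000158, edgeR) and Mmp14 (1.60 ± 0.617 and 55.5 ± 11.3 CPM in the same order; adjusted p = 0.000293) fell. Mmp9 passed as higher at a low level although the groups overlapped (3.02 ± 2.80 CPM in cultured and 0.345 ± 0.474 CPM in fresh libraries; adjusted p = 0.0332). Fresh 1 to 3 held 27 counts of Mmp9 and fresh 4 and 5 held 0, so the size of its fold change relative to fresh 4 and 5 could not be measured. Adam10 and Adam17, sheddases of syndecans, did not pass.

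Partners of the syndecans changed in both directions, 3 higher and 4 lower of 19. Msn, moesin, which links membrane proteins to actin, was at 2635 ± 677 CPM in cultured and 654 ± 61.9 CPM in fresh libraries (log2 fold change 1.89; adjusted p = 0.00155, edgeR). Ezr, ezrin, of the same family, was at 118 ± 17.6 CPM in cultured and 18.7 ± 2.89 CPM in fresh libraries (log2 fold change 2.65; adjusted p = 0.00117). Fzd7, a Wnt receptor reported to act with Sdc4 in mouse satellite cells, was at 7.45 ± 3.72 CPM in cultured and 83.4 ± 32.8 CPM in fresh libraries (adjusted p = 0.00525, edgeR). Itgb5, an integrin subunit, fell as well (1.28 ± 0.745 CPM in cultured and 18.4 ± 2.57 CPM in fresh libraries; adjusted p = 0.00528).

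Of 7 other heparan sulfate proteoglycans, 1 was higher and 3 were lower. Tgfbr3, betaglycan, a co-receptor of TGF-β, was at 43.3 ± 23.7 CPM in cultured and 1361 ± 214 CPM in fresh libraries (log2 fold change -4.88; adjusted p = 0.000441, edgeR). Cd44, the hyaluronan receptor, some forms of which carry heparan sulfate, was at 1215 ± 211 CPM in cultured and 119.6 ± 30.2 CPM in fresh libraries (log2 fold change 3.71; adjusted p = 0.000136). Hspg2, perlecan, a proteoglycan of basement membranes, was at 318 ± 147 CPM in cultured and 699 ± 256 CPM in fresh libraries (log2 fold change -1.56; adjusted p = 0.0189), but did not pass without fresh 4 (adjusted p = 0.0805), fresh 5 (0.115) or cultured 3 (0.0609). Nor did it pass without scaling factors, against run-1 fresh libraries or with a replicate block, and the groups overlapped. The call of Hspg2 was kept in 14 of 20 alternative settings. Of 10 genes for chondroitin sulfate chains, 1 was higher and 3 lower. Chsy1, a chain synthase, was at 79.6 ± 66.2 CPM in cultured and 13.3 ± 5.16 CPM in fresh libraries (log2 fold change 2.78; adjusted p = 0.0372), and lost the call without any 1 of fresh 1 to 4 (adjusted p = 0.0574 to 0.187). Its call was kept in 13 of 20 alternative settings. Csgalnact1, which starts the chain, was at 0.221 ± 0.382 CPM in cultured and 25.5 ± 8.49 CPM in fresh libraries (log2 fold change -7.09; adjusted p = 0.00705), with all its 13 cultured counts in cultured 3.

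Of 9 tested ligands that bind heparan sulfate, 1 was higher and 3 lower. Ptn, pleiotrophin, was at 0 in all cultured libraries and at 26.8 ± 17.1 CPM in fresh libraries, at least 839-fold below fresh 4 and 5 (adjusted p = 0.00146, edgeR). Hgf and Slit2 were also at 0 in culture and passed as lower, by at least 132-fold for Hgf and at least 201-fold for Slit2 relative to fresh 4 and 5. Vegfa, an angiogenic factor, was at 184 ± 115 CPM in cultured and 71.0 ± 17.4 CPM in fresh libraries (log2 fold change 1.60; adjusted p = 0.0429), and lost the call without any 1 of the 5 fresh libraries (adjusted p = 0.0579 to 0.175). Its call was kept in 12 of 20 alternative settings.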

How the data were processed

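RNA from sorted mouse muscle stem cells was extracted with a Qiagen micro kit, amplified with NuGEN Ovation v2 and made into Illumina libraries, per the labels' protocols. The submitters' processing notes name STAR, RSEM and mm10 without tool versions. The deposited values are expected counts by gene from RSEM, and 50.1% of those above 0 were not whole, by a tolerance of 0.001. They were rounded. Of 45798 lines, 92 spike-in lines were left out.

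edgeR 4.0.16 (R 4.3.3) kept 19054 lines (filterByExpr by group), scaled by TMM and fitted run and culture to all 8 libraries with the quasi-likelihood test, with Benjamini-Hochberg adjustment at 0.05 and 5 residual degrees of freedom. SE is the log2 fold change over the root of F. CPM are per scaled library. Limits divide the fresh level by a floor of 3 counts over the cultured group and leave out the counting error of the fresh level. The 95% intervals and floors cover counting error only, since amplified reads without molecular identifiers are not independent molecules. Overlaps used GENCODE M21.

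The members and lists were chosen with earlier results of these data known. Named pathway genes are up to 4 called per list by size of change at a mean of at least 10 CPM, or the 2 most abundant. Alternatives were other scaling, filters and fits, DESeq2 1.42.0, limma-voom (limma 3.58.1), the run subsets, a replicate block and each library left out. The summed Gpc2 lines and a filter by design were chosen after seeing the data.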

Additional observations from a re-analysis of the deposited data

Results flagged for a closer look

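Gpc1 in fresh 3 was at 17.6 CPM, below the other fresh libraries, which were at 32.6 to 37.7 CPM. The gap to the nearest library was 0.747 of the whole range of the fresh group, above the critical value of 0.71 for 5 libraries. Of 11 lines looked at in this way it was the 1 that stood out, and chance flags about 1 in 20 groups. Without fresh 3 the log2 fold change of Gpc1 was 1.65 (edgeR adjusted p = 0.0529).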

How the results depend on the processing

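Over 189 alternatives for the member lines, 160 kept direction and side of the threshold, 20 lost a call, 8 gained one and 1 turned sign, and over 420 for 21 named pathway genes the numbers were 377, 28, 0 and 15. Genes called, 5122 in all, came to 2780 in run 2 alone, 2731 with the replicate block and 3337 to 6163 with 1 library left out (3402 without fresh 4, 3337 without fresh 5). Members called, 5 in all, came to 3 in run 2 alone, 3 with the replicate block, 7 with DESeq2 and 2 to 6 with 1 library left out, and pathway genes called, 29 in all, to 19, 19 and 19 to 37. The Gpc2 line was not tested in run 2 alone or without any 1 of the run-1 fresh libraries, so its call could not be counted there. Members that differed between runs of fresh libraries came to 1 without scaling, 1 with no filter, 1 with DESeq2 and 2 with limma-voom. Signs turned for 4 genes that had not passed. The log2 fold change of Sdc2 was 0.0075 against run-1 fresh libraries. Ext1 was at 0.24 without scaling and between -0.57 and 0.44 with 1 library left out. Glce was at -0.063 with RLE and -0.063 with DESeq2, -0.014 in run 2 alone, -0.12 with limma-voom and between -0.46 and 0.36 with 1 library left out. Ugdh was at 0.023 against run-1 fresh libraries and 0.010 with the replicate block. The cause of these changes was not tested. Over all tested genes, each library's departure in log CPM from its group mean was correlated between cultured and run-1 fresh libraries. Same-numbered libraries gave 0.0296, 0.0103 and 0.0108, so the numbers were not taken to pair them. By that measure each cultured library correlated best with its own number, a hint from the data and not from the design. Under the block, where run and culture cannot be told apart, Gpc1 (adjusted p = 0.0647) and Gpc2 (adjusted p = 0.0682) did not pass. Depth limits Gpc2, Gpc3 and Gpc5, with 0 to 5 counts per cultured library.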
